A study of Homo sapiens with 9 samples.

Results

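The genes described here are the nuclear-encoded subunits of oxidative phosphorylation, taken by name from the protein-coding rows of the gene table: NDUFA, NDUFB, NDUFC, NDUFS and NDUFV genes with a number, SDHA to SDHD, names starting with UQCR, and names starting with COX4 to COX8 or ATP5 and a further letter. The rule found 88 of 58735 genes, of which 36 belong to complex I, 4 to complex II, 9 to complex III, 18 to complex IV and 21 to complex V. NDUFA4 carries a complex I name and was placed in complex IV, where the protein is now assigned. Some genes that match the names are not subunits of the mature enzymes: ATP5IF1 (an inhibitor of ATP synthase), ATP5S, COX7A2L (a factor of respiratory supercomplexes), the readthrough gene ATP5MF-PTCD1, and the gene copies UQCRHL and ATP5MGL.

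The respiratory chain passes electrons from NADH (complex I) and succinate (complex II) through ubiquinone to complex III, then by cytochrome c to complex IV and oxygen. Complexes I, III and IV pump protons across the inner mitochondrial membrane, and complex V, the ATP synthase, lets them flow back to make ATP. Most subunits are encoded in the nucleus and imported. A minority is encoded by mitochondrial DNA, so that complexes I, III, IV and V need both genomes, while complex II is wholly nuclear.

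Expression was measured by RNA sequencing of poly-A selected RNA from GBM43, an established human glioblastoma line, grown in 3D devices of hyaluronic acid, a main component of brain matrix. Control devices were cut into invasive and core fractions, with 3 libraries of each; the labels name both plain culture medium and the vehicle DMSO for these devices. A further 3 libraries came from devices given 50 µM MK801, which blocks the channel of NMDA-type glutamate receptors, with core and invasive cells pooled because few had invaded. All groups are 1 cell line without a genetic change named in the labels, and MK801 libraries have no fraction of their own to be matched with.

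Depth was 15.6 to 54.4 M fragments per library, and 11845 genes that reached 1 FPKM (fragments per kilobase of gene per M fragments) in at least 3 libraries were tested. Nothing in the labels says whether replicates were independent cultures; p-values therefore cover the spread between libraries alone, perhaps only technical. Of 10 glioma and astroglial markers 4 were tested (VIM, CD44, EGFR and SOX2) and 6, among them NES and GFAP, stayed under 1 FPKM in every library; all neuron, immune and epithelial markers listed were also under 1 FPKM, and 1 of 4 endothelial markers was tested. The summed level of those 4 was 0.916, 0.768 and 1.23 FPKM in core, 2.25, 4.60 and 1.63 in invasive and 0.958, 0.791 and 1.1 in MK801-treated libraries, so that invasive libraries lay above both other groups. In invasive libraries CDH5 was at 0.758 to 3.15 FPKM, CLDN5 at 0 and VWF at most at 0.128 FPKM. The 1 tested endothelial marker had a log2 difference of 0.02 between invasive and core libraries. The part of these markers in the results was not tested. The libraries differed in ways that moved with the groups. Core libraries had a mean GC content of fragments of 49.8 to 51.1%, invasive ones of 52.7 to 54.4%, and the MK801 replicates 1 to 3 of 54.2, 53.1 and 50.5%. At equal depth, 20322 to 21414 genes were detected in core libraries, 15975 to 19140 in invasive ones, and 15161, 19031 and 21517 in the MK801 replicates. The ratio of the total used in the deposited FPKM to the fragments recovered here ran from 1.1 to 1.23 for core libraries and from 0.788 to 1.06 for invasive ones; for the MK801 replicates it was 0.769, 0.937 and 1.19. In such bulk samples, fewer cells of a type and less RNA per cell cannot be told apart.

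Promoter sequences are shown first, since the respiratory chain genes lie on 22 chromosomes rather than together. Some motifs were more frequent in their promoters than in all promoters, although no motif searched was in all of them. Promoters of 69 of the 88 genes were matched in RefSeq (GRCh38.p14, 250 bases before to 50 after the start, 300 in all), and both strands were searched. The motif of NRF1, a factor known for respiratory genes, searched as GCGCATGC, was in 18.8% of these promoters against 3.27% of all 27305 promoters. An ETS motif, the kind bound by GABPA, searched as CCGGAAG, was in 29% against 10.7%, and a YY1 motif, AAGATGGC, in 15.9% against 3.03%. GGGCGG, bound by SP factors, was in 60.9% against 44.6%; it can overlap the GC-rich surroundings of the others. CCAAT was in 36.2% against 35.7% and TATAAA in 10.1% against 12.0%. A match is a description of letters and not of binding. The stretches below show 1 match of each of the first 3 motifs in capitals, 5′ to 3′ on the gene's strand; that of COX8A is the reverse complement of the ETS letters.
NDUFB4, NRF1 motif, chr3:120596151-120596210, plus strand: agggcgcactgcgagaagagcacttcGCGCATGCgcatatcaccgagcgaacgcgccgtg
COX8A, ETS motif, chr11:63974576-63974634, plus strand: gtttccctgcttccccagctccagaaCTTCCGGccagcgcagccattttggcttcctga
UQCRC1, YY1 motif, chr3:48609597-48609649, minus strand: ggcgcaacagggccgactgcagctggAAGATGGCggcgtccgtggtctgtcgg

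The whole promoters of 2 accessory complex I genes are given because they stand at opposite ends of the comparison of invasive with core cells, NDUFB7 among the highest and NDUFB3 the lowest. The SP and ETS letters found are in capitals. That of NDUFB7 has a GC content of 63% and that of NDUFB3 of 51%, against medians of 61% over the matched genes and 58.3% over all promoters.
NDUFB7, chr19:14572017-14572316, minus strand: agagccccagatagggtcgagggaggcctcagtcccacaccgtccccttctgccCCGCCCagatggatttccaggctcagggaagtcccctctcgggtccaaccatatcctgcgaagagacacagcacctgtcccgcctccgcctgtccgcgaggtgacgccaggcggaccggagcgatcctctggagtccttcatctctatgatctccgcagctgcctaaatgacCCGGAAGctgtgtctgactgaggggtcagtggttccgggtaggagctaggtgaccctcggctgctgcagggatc
NDUFB3, chr2:201071751-201072050, plus strand: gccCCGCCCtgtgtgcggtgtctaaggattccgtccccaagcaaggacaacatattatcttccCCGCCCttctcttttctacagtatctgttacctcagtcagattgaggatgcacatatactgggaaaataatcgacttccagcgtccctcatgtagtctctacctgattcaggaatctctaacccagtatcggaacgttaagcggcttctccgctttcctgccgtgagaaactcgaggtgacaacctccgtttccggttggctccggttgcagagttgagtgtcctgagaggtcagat

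Nearly the whole chain was expressed. Of the 88 genes, 78 were tested (34, 4, 9, 12 and 19 for complexes I to V), and 14 exceeded 100 FPKM in at least 1 library. The 78 had a median level of 16.3 FPKM, against 5.44 FPKM over all tested genes. On this scale, which is per length, the highest mean levels over 9 libraries in each complex were those of NDUFS5 (212 FPKM) in complex I, SDHB (21.9 FPKM) in complex II, UQCRH, the hinge protein (137 FPKM), in complex III, COX8A (281 FPKM) in complex IV and ATP5F1B, the catalytic beta subunit (239 FPKM), in complex V. The file's gene length counts every annotated exon base, so a gene with long additional transcripts is placed lower. Most of the 10 untested genes, 8 of them, are tissue-restricted isoforms, gene copies or a readthrough. The other 2 are subunits of every complex I: NDUFV2, a part of the NADH-oxidising module, at 0 to 1.67 FPKM, and NDUFA7 at 0.251 to 1.1 FPKM. Both share exon bases with other genes (28.4% for NDUFV2 and 33.5% for NDUFA7), and how the authors assigned such reads is not given in the sources used here; 48 of the 88 genes share some exon bases.

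The isoforms were those of most tissues and not those of muscle, lung or testis. COX6A2 and COX7B2 had 0 fragments in all libraries, which allows up to 0.392 and 0.263 FPKM in the library with the highest such limit (3 fragments, counting error only), while their partners COX6A1 and COX7B had at least 18.1 and 5.44 FPKM in every library. COX4I2, an isoform known for lung and low oxygen, had 4 fragments over all 9 libraries against 99930 for COX4I1. COX6B2 had 49 against 26360 for COX6B1, COX7A1 had 40 against 19566 for COX7A2, and COX8C had 26 against 25602 for COX8A. The 3 genes for the identical mature c subunit of the ATP synthase ring were used in similar proportions everywhere: ATP5MC2 gave 50.3 to 57.7% of their summed FPKM, ATP5MC1 21.6 to 28.2% and ATP5MC3 16.9 to 23.0% over the 9 libraries.

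Invasive cells were compared with core cells first, the fractions that came from the same kind of device. Most of the subunits had higher values in invasive libraries, with a median log2 difference of 0.33 over the 78 genes (56 above 0 and 22 below) beside -0.02 over all 11845 tested genes. By complex, the medians were 0.36 for I, 0.28 for II, 0.41 for III, 0.64 for IV and 0.26 for V; no test of a difference between complexes was made. In 45 genes every invasive library lay above every core library, against a background of 32% of all tested genes, and in 11 every invasive library lay below, against 32.8%. Because 1 was added to FPKM before taking log2, changes of low genes are understated. With a filter of 5 FPKM in place of 1, the median was 0.41 over 68 of the genes and 0.24 over all 6886 genes then tested. The chain was thus less far from all genes when only genes of higher level were compared. The part of expression level in the difference was not tested.

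None of the 78 genes passed the threshold: limma on all 9 libraries with Benjamini-Hochberg adjustment called 0 of 78, and also 0% of all tested genes, at an adjusted p under 0.05. At an unadjusted p under 0.05 there were 28 of 78, and 4461 of all 11845 genes. Limma-voom on recovered fragments also called 0. The call depended on the MK801 libraries, which enter the estimate of spread. Limma on the core and invasive libraries alone called 41 of 78, 35 higher (background 26.3%) and 6 lower (background 25.9%). The 9-library fit called 35 without MK801 replicate 1 (background 39.5%) and 32 without MK801 replicate 3 (background 41.3%). Only with both directions counted together are these shares of the 9-library fit near those of all genes. Without MK801 replicate 1, 30 were higher and 5 lower, against 2388 and 2287 of all 11845 genes. Without MK801 replicate 3, 26 were higher and 6 lower, against 2589 and 2299. In the deposited table, core, invasive and MK801 libraries of 1 replicate number also share a number in their column names. This may mark a common origin, and for core and invasive libraries a common device. The labels do not say so, and the libraries were fitted as unpaired; with a replicate block 11 of 78 were called (background 21.3%).

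**Figure D1:**
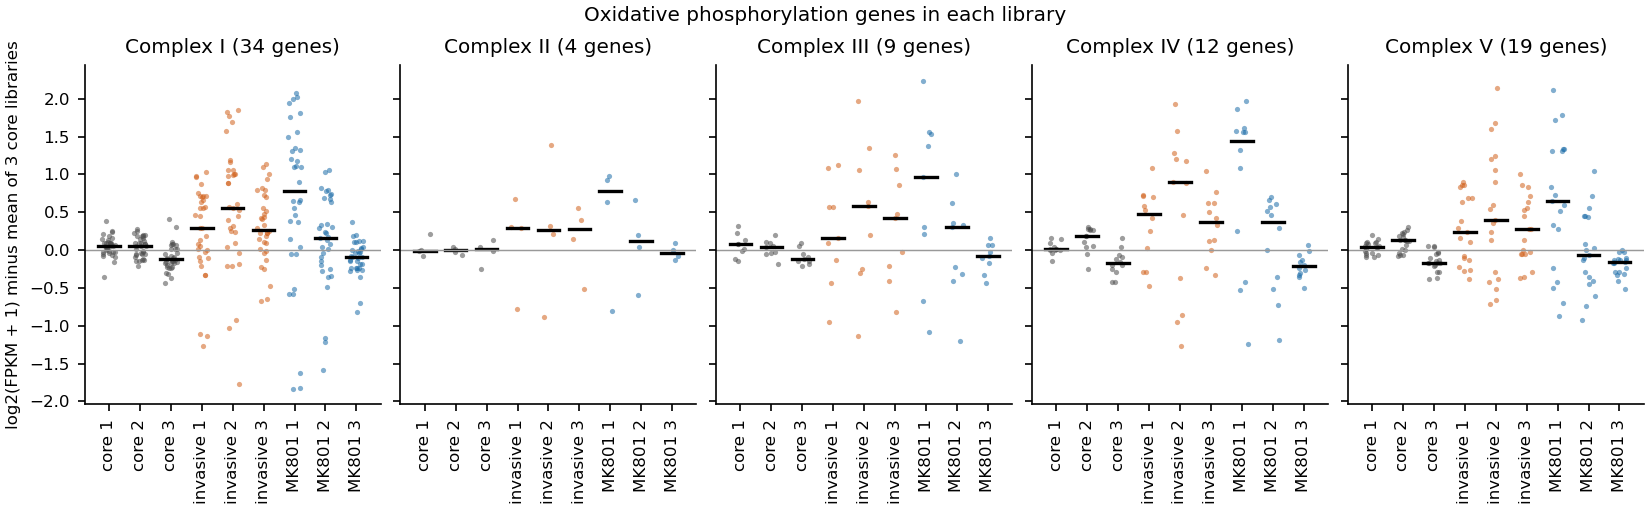
Each point is 1 tested gene in 1 library, as log2(FPKM + 1) minus its mean over the 3 core libraries, by complex; black lines are medians over genes. The invasive libraries have medians of 0.29, 0.55 and 0.28 over all 78 genes, MK801 replicate 1 stands highest at 0.87, and MK801 replicate 3 lies at -0.13, beside core replicate 3.

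In complex I, the NADH dehydrogenase, the genes of the catalytic core did not go together. NDUFV1, which binds NADH and flavin, was at 21.9, 21.7 and 18.2 FPKM in core, 38.4, 68.7 and 36.4 in invasive and 74.8, 34.7 and 18.7 in MK801-treated libraries. Its invasive values all lay above core, with a log2 difference of 1.12 ± 0.44 (SE; limma adjusted p = 0.114), while the MK801 values spanned both. NDUFS8, an iron-sulfur subunit, was at 7.95, 6.45 and 5.92 FPKM in core, 14.2, 26.5 and 15.6 in invasive and 31.5, 14.8 and 7.40 in MK801-treated libraries, with a log2 difference of 1.30 ± 0.43 (adjusted p = 0.106). NDUFS7, a further iron-sulfur subunit, and NDUFS3 had log2 differences of 1.08 and 0.75, again without overlap of the invasive and core libraries. NDUFS1, the largest iron-sulfur subunit, had values that overlapped between the groups, with 4.89 to 6.03 FPKM in core and 4.65 to 5.35 in invasive libraries and a log2 difference of -0.15 ± 0.21.

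Accessory subunits of complex I held both ends of the comparison. NDUFB7 (chr19:14566078-14572062, GRCh38) was at 104, 118 and 75.4 FPKM in core, 200, 353 and 217 in invasive and 401, 174 and 95.5 in MK801-treated libraries, a log2 difference of 1.34 ± 0.47 (adjusted p = 0.107). Its invasive range began above the highest core library. NDUFB3 (chr2:201071433-201085750) went the other way, at 10.7, 9.77 and 14.4 FPKM in core, 4.66, 2.67 and 7.99 in invasive and 2.5, 3.17 and 6.09 in MK801-treated libraries, a log2 difference of -1.13 ± 0.36 (adjusted p = 0.106). Both other groups lay wholly below core for this gene. NDUFS4, an accessory subunit whose loss causes Leigh syndrome, was at 27.7, 24.5 and 28.0 FPKM in core, 10.5, 13.6 and 16.3 in invasive and 7.99, 11 and 16.1 in MK801-treated libraries. Its log2 difference in invasive cells was -0.96 ± 0.27 (adjusted p = 0.103), also without overlap. Over the complex, 26 of 34 tested genes had a value above 0 and 8 below.

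In complex II, which also works in the tricarboxylic acid cycle, 3 subunits stood higher in invasive libraries and the fourth lower, all without overlap. SDHA, the flavoprotein, was at 6.99, 6.12 and 4.81 FPKM in core and 10.0, 17.0 and 9.15 in invasive libraries (log2 difference 0.87 ± 0.30, adjusted p = 0.106). SDHB, the iron-sulfur subunit, differed less, with 17.8 to 18.3 FPKM in core and 22.2 to 24.2 in invasive libraries (0.34 ± 0.25), and SDHC, a membrane anchor, had a log2 difference of 0.22 ± 0.22. SDHD, the other anchor, was at 18.3, 18.4 and 21.2 FPKM in core, 10.9, 10.0 and 13.1 in invasive and 10.6, 12.4 and 17.5 in MK801-treated libraries. Its invasive and MK801 values were all below core, with a log2 difference of -0.72 ± 0.23 (adjusted p = 0.106) for invasive cells.

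In complex III, UQCRC1, a core protein, had the highest log2 difference of all 78 genes. It was at 49.3, 41.1 and 36.1 FPKM in core, 92.1, 167 and 101 in invasive and 201, 85.1 and 39.5 in MK801-treated libraries, a difference of 1.45 ± 0.49 (adjusted p = 0.106). Its partner core protein UQCRC2 overlapped between the groups, at 13.7 to 14.7 FPKM in core and 13.8 to 16.3 in invasive libraries (0.09 ± 0.20). UQCRFS1, the Rieske iron-sulfur protein, had a log2 difference of 0.54 ± 0.25 without overlap. UQCRB, a subunit near the ubiquinone site, was at 8.10, 9.15 and 9.55 FPKM in core, 4.11, 3.53 and 4.60 in invasive and 3.67, 3.31 and 6.34 in MK801-treated libraries. It had the smallest adjusted p of all 78 genes, 0.094 by limma, with a log2 difference of -0.97 ± 0.24 and both other groups below core. UQCRB has a GC content of 38.2%. After removal of the GC trend, described further on, its difference from core was -0.17 for invasive and -0.18 for MK801 libraries.

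In complex IV, cytochrome c oxidase, COX8A (chr11:63974607-63976543) was at 160, 173 and 108 FPKM in core, 308, 553 and 299 in invasive and 570, 234 and 120 in MK801-treated libraries (log2 difference 1.36 ± 0.51, adjusted p = 0.110). It shares 34.5% of its exon bases with another annotated gene. COX4I1, a subunit at which ATP regulates the enzyme, was at 70.5, 79.7 and 61.3 FPKM in core, 115, 163 and 108 in invasive and 210, 104 and 69.6 in MK801-treated libraries (0.85 ± 0.37). COX5B, COX6A1, COX6B1, COX5A and COX7A2 had log2 differences of 0.90, 0.84, 0.79, 0.73 and 0.55, all with invasive libraries above core. COX7B overlapped between the groups (-0.42 ± 0.28), as did the supercomplex factor COX7A2L (0.28 ± 0.31). COX6C and COX7C were the 2 genes of this complex that lay wholly below core in invasive libraries; both were named for that after their values were seen. With the GC trend removed, as described further on, COX7C had a difference of 0.19 in place of -0.46.

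In complex V, ATP5F1B was at 164, 165 and 143 FPKM in core, 285, 374 and 259 in invasive and 400, 214 and 144 in MK801-treated libraries, a log2 difference of 0.94 ± 0.36 (adjusted p = 0.111). Its catalytic partner ATP5F1A, the alpha subunit, had a difference of 0.51 ± 0.24, also without overlap. Of the central stalk, ATP5F1D, the delta subunit, was at 24.1, 27.0 and 17.2 FPKM in core, 41.4, 102 and 45.8 in invasive and 100.2, 47.1 and 20.7 in MK801-treated libraries (1.33 ± 0.52). ATP5F1C, the gamma subunit, differed by 0.19 ± 0.22, and ATP5F1E, the epsilon subunit, by -0.31 ± 0.26 with overlapping groups. The c subunit genes ATP5MC1, ATP5MC2 and ATP5MC3 had log2 differences of 1.11, 0.97 and 0.84, each without overlap. Of the peripheral stalk, ATP5PB and ATP5PO lay below core in every invasive and every MK801 library, again named after their values were seen.

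**Figure D2:**
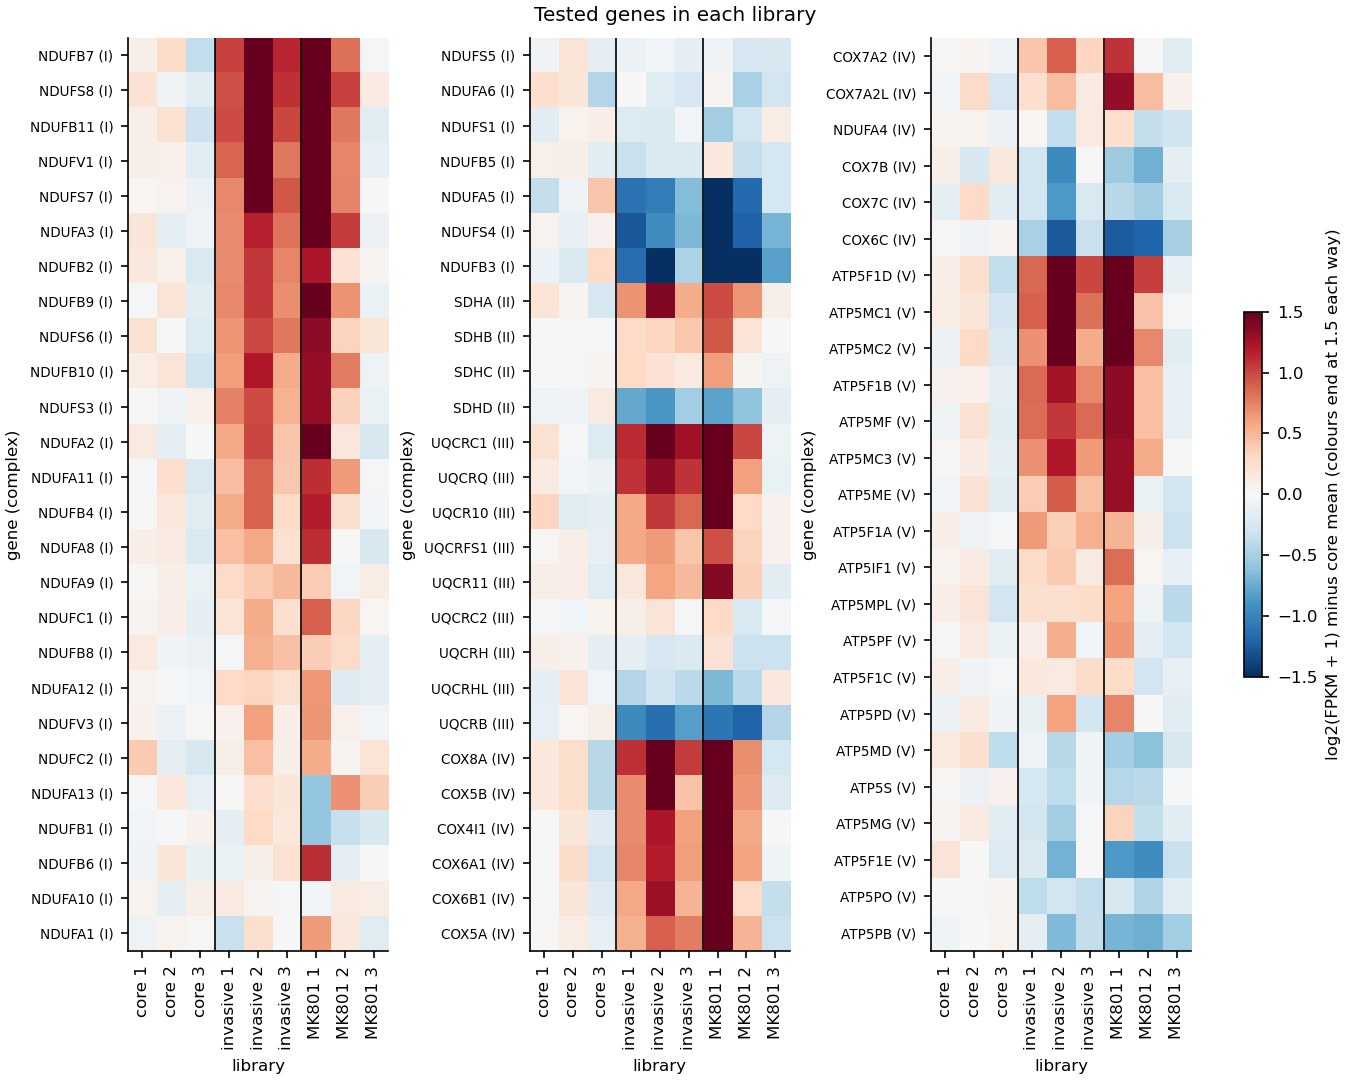
Each row is 1 of 77 tested genes and each column 1 library; colour gives log2(FPKM + 1) minus the core mean, and the scale ends at 1.5 each way. Genes such as UQCRC1 and NDUFB7 are higher in all invasive libraries, NDUFB3, NDUFS4 and UQCRB are lower, and MK801 replicate 3 is close to core for most genes.

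Summed over the genes of each library, the complexes ranked alike at the top but differed in size on 2 scales. The summed level of all 88 genes was 2221 ± 230 FPKM (SD, n = 3) in core libraries, 3373 ± 674 in invasive ones and 3086 ± 1501 for MK801 devices. Invasive to core ratios of the mean sums were 1.44 for complex I, 1.09 for II, 1.37 for III, 1.73 for IV and 1.51 for V. As a share of the summed FPKM of all genes of the library, which does not depend on the total the authors divided by, the same ratios were 1.1, 0.839, 1.05, 1.31 and 1.16. On that scale complex II was lower in invasive than in core libraries, and the excess of the others was smaller. A few genes set these sums: COX8A gave 32.5% of complex IV, ATP5F1B 37.2% of complex V and UQCRH 41.1% of complex III.

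**Figure D3:**
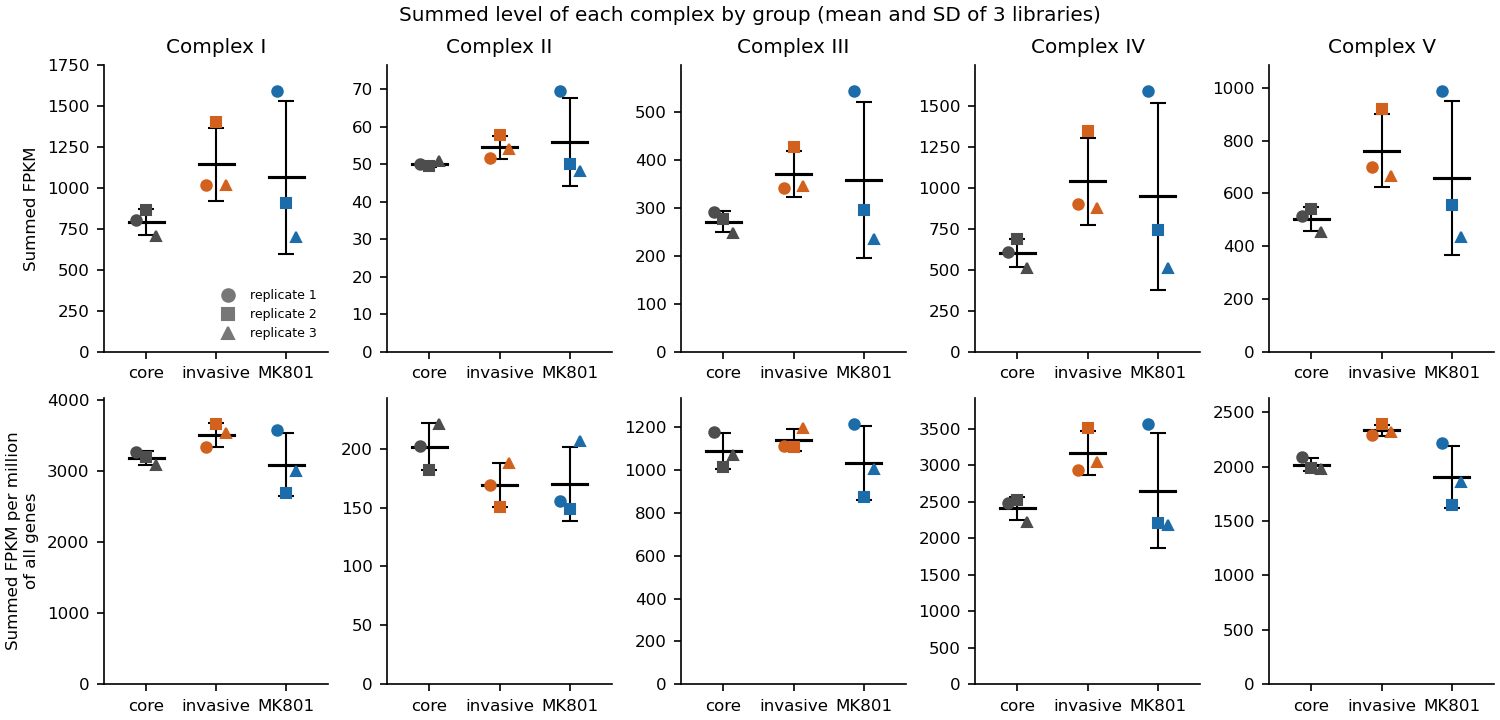
Summed level of each complex by group, in FPKM (top) and per M of the summed FPKM of all genes (bottom), with axes from 0; points are libraries, marked by replicate, and bars are the mean and SD of 3. Complex IV has the highest invasive to core ratio on both scales (1.73 and 1.31), and the MK801 libraries are spread widely on the FPKM scale.

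Differences increased with the GC content of the transcripts. Over the 78 genes, Spearman's rho between GC content and the invasive to core difference was 0.72, and 0.77 over 11841 tested genes with a GC value; these points share libraries and genes are not independent, so no p is given. All 5 genes of the chain under 40% GC had a value below 0, with a median of -0.31, and all 16 at 55% or more had one above 0, with a median of 0.99. All tested genes in the same ranges had medians of -0.80 and 0.68, so the members lay above them in both. NDUFA5 (36.0% GC) had a log2 difference of -0.93, and ATP5F1D (67.6% GC) one of 1.33. SDHD, at 47.3% GC, had a log2 difference of -0.72, where all tested genes from 45 to 50% GC had a median of -0.18. The part of GC content in the differences was not tested.

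With each library's trend over GC content removed, the median difference over the 78 genes was 0.41, with 63 above 0 and 15 below. By complex the medians were then 0.34, 0.58, 0.55, 0.59 and 0.47 for I to V. Limma on the core and invasive libraries alone then called 31 of 78, 30 higher (background 8.79%) and 1 lower (background 8.16%); the 9-library fit called 0. The lower one was SDHD, with a log2 difference of -0.55 (adjusted p = 0.022). Among the higher were ATP5MC3 (1.36), COX7A2 (1.07) and NDUFB4 (1.00), the last being the gene shown with its NRF1 motif, which were chosen after their values were seen. Removal of the trend turned the sign of 15 of the 78 genes, among them NDUFS1, COX7B and ATP5F1E, for which no direction is given. Of these 15, 4 had groups that did not overlap: NDUFA11 and UQCR11, which were above core before, and NDUFB5 and COX7C, which were below.

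With detected genes as a covariate, the median over the 78 genes was -0.03 (37 above 0 and 41 below), beside 0.009 over all tested genes. The complexes then lay at 0.09, -0.02, -0.08, -0.09 and -0.04. When each library was rescaled to the same summed FPKM, the median was 0.01 with 39 above 0 and 39 below, while the median of all tested genes lay at -0.30. With equal summed FPKM the median of the chain was still higher than that of all genes, while with the covariate it was not. Which of these scales is nearest to RNA per cell was not tested, since no spike-in is named in the sources used here.

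**Figure D4:**
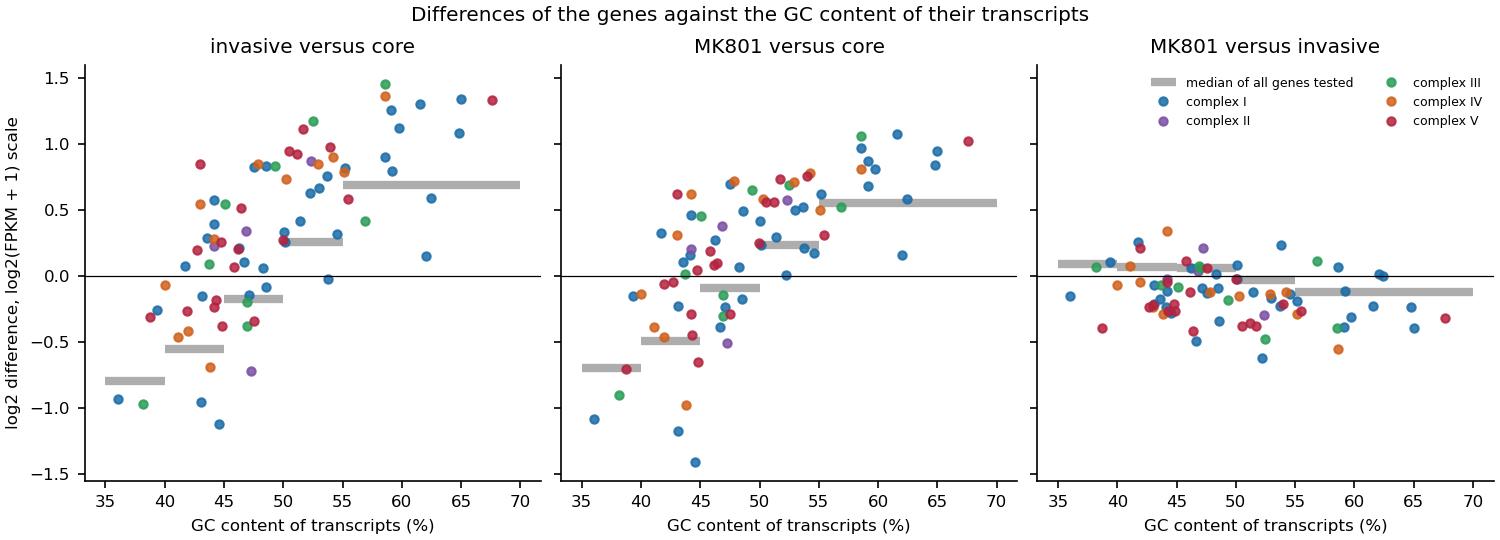
Each point is 1 of the 78 genes: the GC content of its transcripts (%) against its log2 difference in each comparison, coloured by complex; grey bars are medians of all tested genes in the same GC range. Points rise with GC content in the first 2 panels (rho 0.72 in both) and mostly lie above the grey bars; in the last panel they lie mostly below 0.

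MK801 devices were then compared with core. Their libraries pool core and invasive cells. In a comparison with either control fraction, MK801 and the mix of fractions therefore cannot be told apart. The median log2 difference was 0.28 over the 78 genes (55 above 0, 23 below) beside 0.00 over all genes, and 0.28, 0.29, 0.45, 0.54 and 0.09 by complex. With the filter of 5 FPKM, the median was 0.32 over 68 of the genes beside 0.23 over all genes then tested. Limma called 0 of 78 and 0% of all tested genes; 10 of 78 and 2509 of all genes had an unadjusted p under 0.05. In 0 genes did all MK801 libraries lie above core (background 9.89%), and in 10 all lay below (background 8.82%): NDUFB1, NDUFB3, NDUFS4, SDHD, UQCRB, COX6C, COX7C, ATP5F1E, ATP5PB and ATP5PO. With the GC trend removed, the differences of COX7C and ATP5F1E among these turned sign. The invasive libraries also lay wholly below core in 8 of these; both comparisons share the core libraries, so this is no independent evidence.

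The higher values in MK801 devices were highest in 1 library. MK801 replicate 1 had the highest value of all 9 libraries in 51 of 78 genes, and its median position was 0.87 above the core mean, against 0.11 and -0.13 for replicates 2 and 3. NDUFS8, UQCRC1 and ATP5F1D had the highest log2 differences, 1.07 ± 0.43, 1.06 ± 0.49 and 1.02 ± 0.52. For these 3 genes MK801 replicate 3 lay within the core range. Without MK801 replicate 1 the complex medians were 0.09, 0.04, 0.09, 0.03 and -0.19, and without replicate 3 limma called 39 of 78, with a background of 50.2%. At the low end, NDUFB3, NDUFS4 and NDUFA5 had differences of -1.41 ± 0.36, -1.18 ± 0.27 and -1.08 ± 0.37 (adjusted p = 0.235 for all 3). NDUFA5, an accessory subunit, was at 2.99, 3.91 and 5.81 FPKM in core and 0.445, 1.28 and 3.25 in MK801 libraries, so that its groups overlapped.

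Between MK801 devices and invasive cells, the subunits were closer. The median log2 difference was -0.14, with 19 above 0 and 59 below, beside 0.00 over all genes. Limma called 0 of 78 and 0% of all tested genes; 2 of 78 and 978 of all genes had an unadjusted p under 0.05. In 0 genes did all MK801 libraries lie above invasive (background 5.22%), and in 1 all lay below (background 5.63%). That gene was NDUFB1, at 1.72, 2.68 and 2.32 FPKM in invasive and 0.999, 1.35 and 1.54 in MK801 libraries (-0.49 ± 0.20, adjusted p = 0.553). COX8A had a difference of -0.55 ± 0.51, with 308, 553 and 299 FPKM in invasive and 570, 234 and 120 in MK801 libraries, which overlapped. The highest were COX7A2L (0.34 ± 0.31), NDUFB6 (0.25 ± 0.31) and NDUFA1 (0.23 ± 0.26). Those of COX7A2L and NDUFB6 changed sign without MK801 replicate 1. Without that library the complex medians were -0.38, -0.24, -0.32, -0.57 and -0.41, and the median over all 78 was -0.38. Without MK801 replicate 3 the sign turned: the median over all 78 was 0.04, with 45 above 0 and 33 below, and the complex medians were 0.09, 0.07, 0.11, 0.08 and 0.00. Without invasive replicate 2 the median was -0.04. The order of these 2 groups thus rests on single libraries, and no direction is given.

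The groups also differed in how far their libraries were apart in these genes. Over the 3 core libraries the median coefficient of variation per gene was 12.4%, over the invasive ones 19.3%, and over those of MK801 devices 42.0%. The deepest library, MK801 replicate 3 with 54.4 M fragments, was the lowest of 9 in 15 of the 78 genes and the highest in 1. Core replicate 3, with 18.3 M fragments, was the lowest in 31 and the highest in 10.

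Genes that build or feed the chain were read from lists that hold none of the 78 genes. Their values are given with the GC trend left in, beside a median of -0.02 over all tested genes. The part of GC content in the differences between lists was not tested. Of 26 tested assembly factors of complex IV, 9 had higher and 17 lower values in invasive than in core cells, with a median log2 difference of -0.40, opposite in sign to the subunits' 0.64. SURF1, an assembly factor, had 1.15 ± 0.43 and FASTKD2, an RNA-binding protein of mitochondria, -0.81 ± 0.26. Assembly factors of complex I had a median of 0.05 over 19 genes, from -1.36 for TMEM126B to 1.15 for NDUFAF3. Tricarboxylic acid cycle enzymes had a median of 0.54 over 18 genes (12 above 0, 6 below), with IDH2 at 1.43 ± 0.44 and DLD at -0.85 ± 0.27. Mitochondrial ribosomal proteins had 0.26 over 76 genes and cytoplasmic ones 0.07 over 90. The 13 subunits encoded by mitochondrial DNA had a median of 0.31, with MT-ND3 at 0.99 ± 0.48 and MT-ND6 at -0.20 ± 0.38. Regulators of mitochondrial biogenesis had -0.09 over 16 genes, with GABPA at -1.15 ± 0.47 and POLRMT, the mitochondrial RNA polymerase, at 0.91 ± 0.31. CYC1, a complex III subunit that the naming rule misses, had 1.39 ± 0.52. Limma called 0 genes of these lists in this comparison.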

How the data were processed

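RNA sequencing of 9 GBM43 libraries (3 core, 3 invasive, 3 MK801) was analysed from the deposited FPKM per gene. Per the submitters' processing notes, HISAT2 2.0.5, featureCounts 1.5.0-p3 and GRCh38 were used; their settings and the use of strand are not given in the sources used here. FPKM times gene length gave whole fragments for 100% of values above 0 (tolerance 0.01 fragments), with totals of 15.6 to 54.4 M; identifiers matched GENCODE release 29 (100%). Log2(FPKM + 1) of 11845 genes was fitted with limma 3.58.1 (R 4.3.3) over all 9 libraries, with a mean for each group (6 residual degrees of freedom), with Benjamini-Hochberg adjustment over all of them and a threshold of 0.05. The fit was tested on simulated data. An exact permutation test of 3 against 3 cannot go below 0.1, so none is given.

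The genes, lists, alternatives and rule for named genes were chosen with earlier results of these data known. Named are the catalytic core, paired isoforms, the 3 highest and 3 lowest differences per comparison, and at most the 2 highest and 2 lowest of other lists; 1 gene that this rule names is not reported here. Alternatives were pseudocounts 0.1 and 0.5, no filter or 5 FPKM, median-of-ratios, equal-sum and quantile scaling, a replicate block, 2 groups alone, limma-voom on recovered fragments with TMM scaling, loess trends over GC content and length removed (span 0.3), genes detected at 15.6 M fragments as a covariate, and leaving out each library. Which promoters are printed, and leaving out 2 libraries together, were chosen after the data were seen.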

Additional observations from a re-analysis of the deposited data

How the results depend on the processing

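For invasive against core, the median difference over the chain was 0.33 and kept its sign in every alternative except 1: it was 0.0129 with equal summed FPKM and -0.0310 with genes detected as a covariate; other settings gave 0.26 to 0.41. For MK801 against core it was 0.28, with 0.11 to 0.32 under other settings except -0.06 with equal summed FPKM and 0.0038 with genes detected as a covariate, and 0.0038 to 0.46 when single libraries were left out, lowest without MK801 replicate 1. For MK801 against invasive it was -0.14, and -0.38 to 0.04 when single libraries were left out, the sign turning without MK801 replicate 3. In the comparison of invasive with core, the count of calls was 0 of 78 with 9 libraries. It was 11 with a replicate block (21.3% of all genes called) and 41 with the 2 groups alone (52.2%). With the 2 groups alone it was also 46 with a replicate block (60.2%) and 31 with the GC trend removed (16.9%). Leaving out single libraries gave 0 to 35, beside 39.5% of all genes in the fit with 35. For MK801 against core, 0 became 1 with the 2 groups alone and a replicate block, and 0 to 39 when single libraries were left out, beside 50.2% of all genes in the fit with 39. For MK801 against invasive, 0 became 1 with genes detected as a covariate. Over all 11845 genes, invasive against core, calls of 0 became 3117 higher and 3062 lower with the 2 groups alone, 1383 and 1142 with a replicate block, 3636 and 3498 with the 2 groups alone and a replicate block, and 1041 and 966 with the GC trend removed and the 2 groups alone. Deviations from group means in core and invasive libraries of the same number had correlations of -0.007, 0.24 and 0.44 for replicates 1 to 3. Those of different numbers ran from -0.40 to 0.21. With MK801 libraries included, same-numbered correlations ran from -0.15 to 0.61. So few values cannot decide whether core and invasive libraries shared a device. The labels name no pairs, so the libraries were fitted as unpaired.

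Of 50 differences followed for named genes, 16 changed sign under at least 1 alternative, 36 sign changes in 1295 alternative values. Of a further 64 differences, 37 did. The 50 are not exactly those printed. They include the invasive to core differences of NDUFB1, NDUFB6 and NDUFA1, given only under alternatives. COX7C, whose printed difference turned sign with the GC trend removed, is not counted among the 16. None of the 50 passed the threshold with 9 libraries, and the cause was not tested. For invasive against core, equal summed FPKM gave ATP5F1C -0.18, COX7A2L -0.0725, NDUFB1 -0.16, NDUFB6 -0.29, SDHB -0.0216, SDHC -0.11 and UQCRC2 -0.27. Quantile normalization gave ATP5F1C -0.24, NDUFB6 -0.20 and UQCRC2 -0.13. Genes detected as a covariate gave COX5B -0.11, COX6B1 -0.0831, COX7A2 -0.0349, COX7A2L -0.27, NDUFB6 -0.35, NDUFS1 0.11, SDHB -0.0007, SDHC -0.0420 and UQCRC2 -0.0848. With the GC trend removed, in all 3 such fits, ATP5F1E was 0.47, COX7B 0.18 and NDUFS1 0.36; with GC and length trends removed they were 0.46, 0.13 and 0.38. Leaving out single libraries gave NDUFB6 -0.0043 to 0.16 and NDUFA1 -0.16 to 0.12. For MK801 against invasive it gave COX7A2L -0.0155 to 0.61 and NDUFB6 -0.14 to 0.49, and NDUFB6 was -0.13 without both MK801 replicate 1 and invasive replicate 2, which was an added alternative. Depth limits the isoforms and NDUFV2, whose values rest on few fragments.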
